A study of Mus musculus with 26 samples.

Results

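The genes described here are germline and meiosis genes, many of which are known to be silenced by methylation of their promoters in cells outside the germline. The list holds 32 genes, chosen by name. Each gene was read from 1 probe set, the one that names no other gene and has the highest average on the 26 arrays; this gave 29 of the 32 among 18193 genes in all. Rpl10l, Fkbp6 and Zcwpw1 were named by no probe set and were not analysed here. A gene was counted as above the floor in a group where its mean signal exceeded 6 on the log2 scale of the deposited values, and 18 of the 29 genes did so in at least 1 of the 13 groups. Over all 18193 genes 59.1% did so, a share close to that of the list.

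Germline genes of this kind often carry promoters rich in CpG dinucleotides that lack the usual protection from DNA methylation, and the de novo methyltransferases Dnmt3a and Dnmt3b with their cofactor Dnmt3l place the mark on them when the early embryo implants. Repressors such as the E2F6 and MGA complexes and the histone methyltransferase Setdb1 also act at such promoters. Primordial germ cells erase the mark and transcribe these genes before and during meiosis, and mouse embryonic stem cells (ESCs), which stand for the cells of the blastocyst before implantation, are known to transcribe some of them. Prdm14 is a nuclear protein of primordial germ cells and naive ESCs that is known to restrain Dnmt3b and Dnmt3l.

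All cells were male and of the C57BL/6 strain. Wild-type (Prdm14 +/+) ESCs, Prdm14 -/- cells and Prdm14 -/- cells carrying the AGP14 transgene, a tagged Prdm14 driven by the constitutive pPyCAG vector, were grown on mouse embryonic fibroblast feeders. The medium called 2i held N2B27 with the MEK inhibitor PD0325901 at 0.4 uM, the GSK3 inhibitor CHIR99021 at 3 uM and the cytokine LIF at 1000 units per ml. Cells were also kept for 2 days in serum medium (20% FBS with LIF), in serum medium without LIF, or, for the wild-type and Prdm14 -/- cells only, in serum medium with PD0325901 at 0.4 uM. The remaining groups were epiblast-like cells (EpiLCs), which model the epiblast soon after implantation, at day 2 and day 3; these carried the Blimp1-mVenus and Stella-ECFP reporters and intact Prdm14. Each of the 13 groups had 2 arrays, and the labels do not say whether these came from separate cultures, so the p-values take in no more than the array-to-array spread, and that may be technical.

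Several facts of the whole series bear on the results. Signal for Prdm14 went against the labels in 2i, where it read 8.95 and 9.40 in wild type and 11.33 and 11.24 in the arrays labelled knockout (2.11 higher, limma adjusted p = 0.00268). It did so with MEK inhibitor too, at 9.04 and 9.48 against 10.60 and 10.87 (1.48 higher, adjusted p = 0.0491). In serum and without LIF the knockout differences were -0.69 and -1.10, the direction the labels give, and did not pass (adjusted p = 0.389 and 0.153). No source used here says whether its probe set lies in the deleted stretch, so the genotype directions below rest on the labels. Prdm14 signal also moved with intact Prdm14. In wild type it was lower in serum than in 2i (-2.54, limma adjusted p = 7.24e-05) and lower again without LIF (-1.90, 0.0236). It was higher with MEK inhibitor than in serum (2.63, 0.000108). EpiLCs at day 2 had a mean of 3.06 against 9.18 in 2i (-6.11, 9.25e-10). The part of these shifts in the results was not tested. The Lys spike-in control, added during labelling, read 13.39 to 13.57 on 12 arrays (wild type and knockout in 2i and with MEK inhibitor, and EpiLCs) and 6.77 to 7.38 on the other 14 (AGP14 in 2i, and all arrays in serum with or without LIF). Each comparison of knockout with wild type therefore lies within 1 spike level, whereas serum against 2i, MEK inhibitor against serum and AGP14 against knockout in 2i each lie across both. Pou5f1, which defines pluripotent cells, was between 12.2 and 12.73 in every group mean. Group means of other ESC markers ranged more widely: Sox2 from 11.27 to 12.94, Nanog from 9.73 to 12.69, Zfp42 from 8.84 to 11.38 and Esrrb from 7.12 to 11.16. Of 12 feeder fibroblast markers 11 were on the array; their mean was 9.63 on both wild-type arrays in 2i, 6.83 and 7.09 in serum, 8.40 and 8.53 with MEK inhibitor, and 5.68 and 5.71 in EpiLCs at day 2. Of 6 markers of later germ cells, the spermatid genes Prm1, Prm2, Tnp1 and Acrv1 and the oocyte factor Gdf9 stayed under the floor in every group mean, with 4.23 as the highest. The other, Zp3 of the egg coat, had group means from 5.05 to 7.54 and was higher in the arrays labelled knockout with MEK inhibitor (1.27, adjusted p = 0.0314); its part in the results was not tested. In bulk RNA of this kind, fewer cells of a type and less RNA per cell cannot be told apart.

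**Figure D1:**
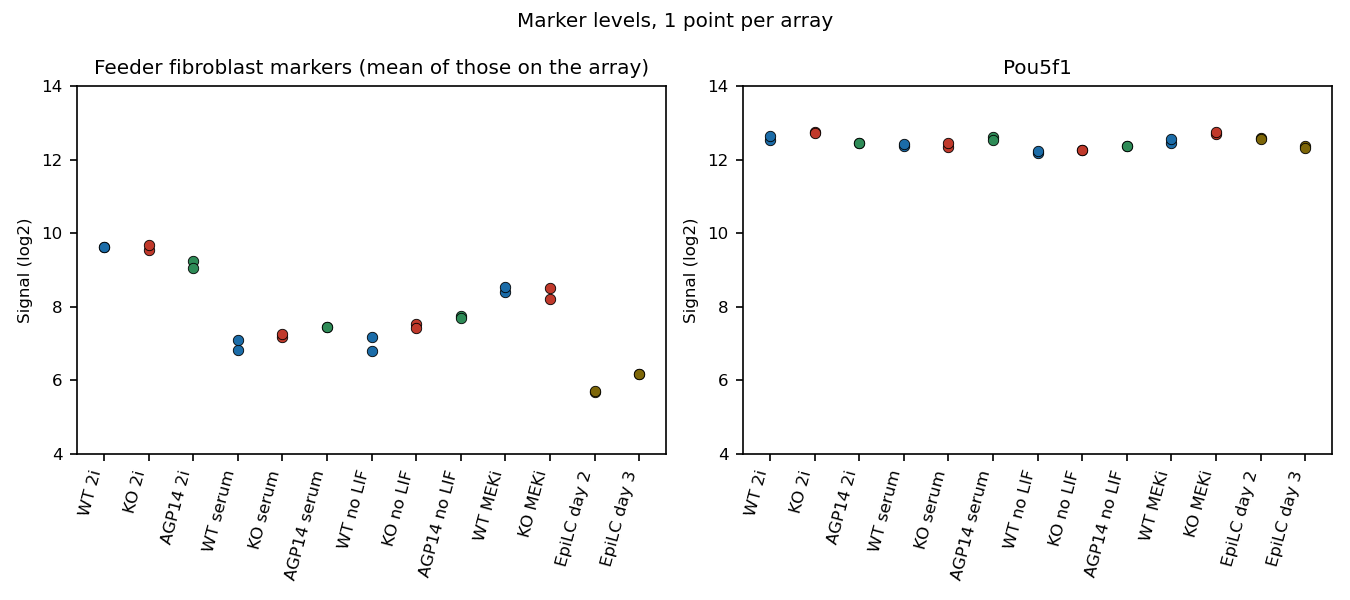
Deposited log2 signal on each array (1 point per array, 2 per group) for the mean of 11 feeder fibroblast markers, left, and for Pou5f1, right. Blue marks wild type (WT), red the arrays labelled knockout (KO), green AGP14 and brown EpiLCs. The feeder markers were higher in 2i (9.63 in wild type) and with MEK inhibitor (8.40 and 8.53) than in serum (6.83 and 7.09), whereas Pou5f1 stayed between 12.2 and 12.73 in all group means.

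The RefSeq promoter table (GRCm38.p6) held 29 of the 32 genes; Tex11, Piwil2 and Spo11 had no entry. The 250 bases before the transcription start held a median of 15 CpG dinucleotides in these genes, with a range of 5 to 31, against 6 over all 27025 genes with a promoter and 13 over the 14452 of them on the array. The E-box CACGTG, which reads the same on both strands and is bound by MAX-containing complexes, occurred in 13 of the 29 promoters (44.8%), against 6.05% of all promoters and 7.56% of those on the array. The E2F6-type motif GCGGGA, searched on both strands as GCGGGA and TCCCGC, occurred in 9 of 29 (31.0%), against 16.9% and 25.0%. Both motifs occurred in 4 of 29 (13.8%) against 1.47% of all promoters and 2.32% of those on the array. A match is a description of letters and not a binding site. The motif shares did not set apart the genes that fell in the arrays labelled knockout: CACGTG occurred in 3 of the 8 that fell in at least 1 medium and had a promoter entry (37.5%), and in 9 of the 18 that fell in none (50.0%).

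Promoters of 4 genes on which the comparisons below turn are shown to let the reader see the CpG content that methylation can act on; CG dinucleotides are in capitals. They are read 5′ to 3′ on the strand of the gene and end at the base before its start, outside the annotated gene. The Hormad1 promoter (chr3:95559427-95559676, plus strand) held 19 CpG, 2 matches to CACGTG and 1 to GCGGGA. The Sohlh2 promoter (chr3:55181794-55182043, plus strand) held 14 CpG and the Dazl promoter (chr17:50293621-50293870, minus strand) 20, with no match to either motif. The Slc25a31 promoter (chr3:40708621-40708870, plus strand) held 18 CpG and 1 match to CACGTG.
Hormad1: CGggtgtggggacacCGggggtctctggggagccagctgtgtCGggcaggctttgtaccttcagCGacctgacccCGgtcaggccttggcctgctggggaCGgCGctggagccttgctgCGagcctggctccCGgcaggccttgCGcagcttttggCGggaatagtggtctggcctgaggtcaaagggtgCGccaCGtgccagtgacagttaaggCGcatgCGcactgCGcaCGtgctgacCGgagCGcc
Sohlh2: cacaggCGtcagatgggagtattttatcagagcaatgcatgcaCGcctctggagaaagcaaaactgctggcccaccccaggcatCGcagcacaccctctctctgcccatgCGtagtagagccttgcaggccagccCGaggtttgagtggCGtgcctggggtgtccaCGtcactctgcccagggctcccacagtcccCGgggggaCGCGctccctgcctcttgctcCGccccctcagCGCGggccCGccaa
Dazl: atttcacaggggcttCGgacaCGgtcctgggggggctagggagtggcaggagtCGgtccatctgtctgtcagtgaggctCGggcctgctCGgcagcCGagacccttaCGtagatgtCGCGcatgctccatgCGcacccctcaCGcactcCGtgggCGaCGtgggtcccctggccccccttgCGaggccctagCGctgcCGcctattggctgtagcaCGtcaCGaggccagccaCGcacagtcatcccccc
Slc25a31: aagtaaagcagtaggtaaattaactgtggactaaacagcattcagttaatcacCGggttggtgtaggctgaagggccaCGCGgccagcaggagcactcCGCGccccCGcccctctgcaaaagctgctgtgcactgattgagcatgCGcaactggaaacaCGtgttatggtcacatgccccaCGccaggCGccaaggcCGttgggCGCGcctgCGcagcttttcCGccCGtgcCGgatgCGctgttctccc

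Across the groups, 7 of the 29 genes exceeded 6 in every group: Ddx4, an RNA helicase of germ granules; Sycp3, a protein of the chromosome axis; the meiotic cohesin subunits Rec8 and Stag3; the meiotic recombinase Dmc1; Mael, a protein of piRNA biogenesis and transposon silencing; and Tex19.1, which restrains transposons in germ cells and placenta. The number above the floor was lowest in knockout 2i, with 7 genes, and highest in EpiLCs at day 2, with 18. Wild-type ESCs had 13 genes above the floor in 2i, 16 in serum, 17 without LIF and 12 with MEK inhibitor. Over all 18193 genes the share above the floor ran from 51.4% to 53.1% per group. It was 59.1% for at least 1 group, and the share above the floor in every group was not computed. The median of the 29 genes was 4.88 in knockout 2i, 5.92 in wild-type 2i and 6.70 in EpiLCs at day 2, where the medians over all genes were 6.24, 6.33 and 6.20. Just inside the rule lay Syce1, Taf7l and Tdrkh, whose highest group means were 6.70, 6.72 and 6.74; just outside lay Stra8, Smc1b and Tex11, at 5.85, 5.84 and 5.62. With a floor of 5 or 7 in place of 6, the number above it in any group was 23 or 14.

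The 11 genes under the floor in every group mean were Stra8, Brdt, Sycp2, Tex11, Smc1b, Spo11, Mei1, Tdrd1, Asz1, Mov10l1 and Tex101. They include Spo11, which makes the double-strand breaks of meiotic recombination (3.03 to 4.19 over the 26 arrays), and Mei1, which is needed for those breaks (3.04 to 4.41). Tdrd1, a Tudor protein of the piRNA pathway, was listed at 0 on 9 arrays and reached 2.46 at most, so no fold is given for it. Brdt, a testis bromodomain protein, stayed between 4.53 and 5.64, and the piRNA helicase Mov10l1 between 3.76 and 5.12.

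**Figure D2:**
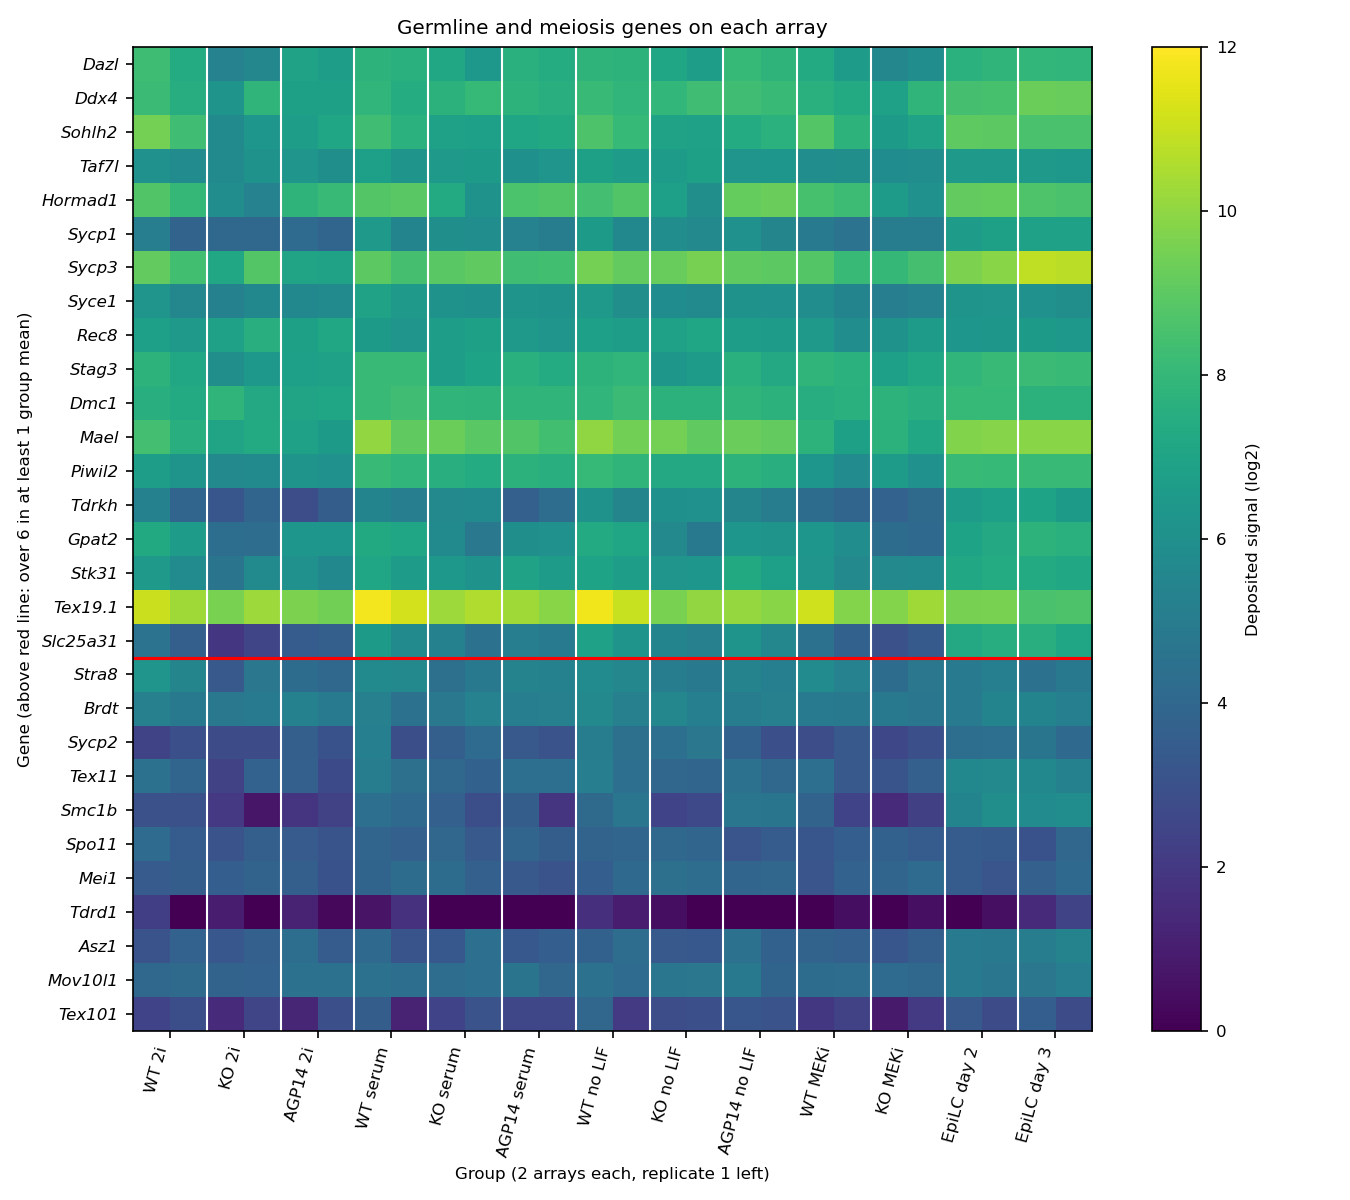
Deposited log2 signal of the 29 genes (rows) on each of the 26 arrays (columns, 2 per group, replicate 1 on the left; WT wild type, KO labelled knockout, MEKi serum with MEK inhibitor). Genes above the red line exceeded 6 in at least 1 group mean; colours show each gene across arrays and do not rank genes against one another, since probe sets differ in response. Hormad1 and Gpat2 had their lowest group means in the arrays labelled knockout. Dazl was lowest in knockout 2i and with MEK inhibitor (5.44 and 5.71), and Mael, Piwil2 and Slc25a31 were higher in serum and EpiLCs than in 2i.

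The comparison of knockout with wild type asked how these genes differed between the labelled genotypes in each medium. Differences between the lines other than Prdm14 were not tested. In the arrays labelled knockout in 2i, 8 of the 29 genes fell: Sohlh2, Hormad1, Gpat2, Dazl, Slc25a31, Stra8, Stag3 and Piwil2 (limma, adjusted p under 0.05 over all genes). None rose, with 1 gene higher and 16 lower at an unadjusted p under 0.05. Over all genes 5.52% were called lower and 3.63% higher. The median difference of the 29 genes was -0.76 on the log2 scale against -0.03 over all genes, and 24 of the 29 lay below 0 against 53.9% of all genes. In serum 3 of 29 fell (Hormad1, Gpat2, Stag3), where 2.79% of all genes were called lower and 1.39% higher, with a median of -0.46. Without LIF 6 of 29 fell (Hormad1, Gpat2, Stag3, Sohlh2, Piwil2, Tex19.1), where the background was 2.44% lower and 1.75% higher, and the median was again -0.46. With MEK inhibitor 5 of 29 fell (Hormad1, Gpat2, Stag3, Sohlh2, Dazl), where it was 2.22% and 1.86%, and the median was -0.26. In serum, without LIF and with MEK inhibitor none rose, and none was higher at an unadjusted p under 0.05; at that p 11, 11 and 8 were lower.

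Hormad1, Stag3 and Gpat2 fell in all 4 media, that is 10.3% of the 29 genes against 0.445% of all genes (81 genes). At least 1 medium gave a call for 9 of the 29 (31.0%) against 8.54% of all genes. Counting arrays without a test, both knockout arrays lay below both wild-type arrays in all 4 media for 8 of 29 genes (27.6%: Dazl, Stra8, Sohlh2, Hormad1, Smc1b, Stag3, Gpat2 and Slc25a31), against 3.45% of all genes. The 4 media are not independent readings of the genotype difference. Same-numbered arrays of 1 genotype deviated together across media (correlations of 0.106 to 0.216 in wild type and 0.099 to 0.201 in knockout). The feeder markers did not separate these groups in 2i, where the knockout arrays read 9.55 and 9.67 against 9.63 and 9.63 and 0 of 11 markers passed in limma, with 1 lower and 1 higher at an unadjusted p under 0.05. In serum they read 7.19 and 7.25 in knockout against 6.83 and 7.09, and without LIF 7.53 and 7.43 against 6.80 and 7.17. Fn1 was lower (-0.49 and -0.62) and Mmp2 higher (0.68 and 0.60) in both of these media, and Tagln was higher without LIF (1.39); with MEK inhibitor 0 of 11 passed in limma, with 1 lower and none higher at an unadjusted p under 0.05. The mean of 5 ESC markers was lower in knockout in serum (10.79 and 10.93 against 11.13 and 11.52, 2 of 5 called lower) and without LIF (9.99 and 10.29 against 10.44 and 10.87, 3 of 5 called lower); the part of these markers in the result was not tested. After quantile normalization between arrays the calls over all genes split into 852 higher and 859 lower in 2i, in place of 661 and 1004, and into 413 and 372 in serum, in place of 252 and 507, while 8 and 3 of the 29 genes were called.

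Among the germ cell regulators, Dazl, an RNA-binding protein that controls translation in germ cells, read 8.29 and 7.39 in wild-type 2i and 5.33 and 5.56 in knockout 2i. The arrays did not overlap, and the difference was -2.40 (SE 0.27, adjusted p = 2.06e-05). A further probe set of Dazl, not used in the tests, had group means of 7.96 and 5.62. With MEK inhibitor Dazl read 7.35 and 6.64 in wild type and 5.56 and 5.86 in knockout, a difference of -1.28 (adjusted p = 0.0101). The differences in serum, -0.93, and without LIF, -0.87, missed the threshold (adjusted p = 0.0625 and 0.0829), although the knockout arrays lay below both wild-type arrays there too. With the line (genotype and replicate number together) as a random block, the serum count was 7 of 29 in place of 3, the added calls being Dazl (adjusted p = 0.0468), Sohlh2 (0.0223), Tex19.1 (0.0337) and Slc25a31 (0.0472). With the replicate number as a fixed block it was 6, with Dazl (0.0311), Piwil2 (0.0263) and Slc25a31 (0.0404) added. Ddx4 did not pass in any medium: in knockout 2i its arrays read 6.19 and 7.85, on either side of the lower wild-type array at 7.48.

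Sohlh2, a helix-loop-helix transcription factor of spermatogonia and oocytes, had the largest difference of the 29 genes in 2i, from 9.48 and 8.32 in wild type to 5.68 and 6.32 in knockout (-2.90, SE 0.34, adjusted p = 2.53e-05). It also fell without LIF, from 8.63 and 8.06 to 6.92 and 6.89 (-1.44, adjusted p = 0.0202), and with MEK inhibitor, from 8.80 and 7.78 to 6.55 and 6.93 (-1.55, adjusted p = 0.0124). In serum the difference of -1.16 missed the threshold (adjusted p = 0.0607). Stra8, the retinoic acid target that gates entry into meiosis, fell in 2i from 6.25 and 5.45 to 3.36 and 4.74 (-1.80, adjusted p = 0.00221), under the floor in both group means. Taf7l, a germ cell form of a TFIID subunit, differed by -0.02, 0.01, 0.02 and -0.03 in 2i, serum, without LIF and with MEK inhibitor, with adjusted p from 0.974 to 0.988.

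Hormad1, a HORMA-domain protein that recruits the machinery of meiotic breaks and synapsis to the chromosome axis, read 8.76 and 8.01 in wild-type 2i and 5.89 and 5.31 in knockout 2i (-2.78, SE 0.32, adjusted p = 2.53e-05). In serum it read 8.78 and 8.95 against 7.33 and 6.18 (-2.11, adjusted p = 0.0011), and without LIF 8.40 and 8.76 against 6.77 and 5.92 (-2.24, adjusted p = 0.000569). With MEK inhibitor it read 8.50 and 8.21 against 6.62 and 6.08 (-2.00, adjusted p = 0.00136). No knockout array reached the lowest wild-type array of its medium. The other axis and synaptonemal complex genes did not pass in any of the 4 media: Sycp3 differed by -0.76, 0.27, 0.05 and -0.23 in 2i, serum, without LIF and with MEK inhibitor, and its knockout arrays in 2i spread from 7.20 to 8.80. Sycp1, the transverse filament of the synaptonemal complex, differed by -0.48, -0.03, -0.32 and 0.25.

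Of the meiotic cohesins, Stag3 read 7.76 and 7.20 in wild-type 2i and 5.91 and 6.38 in knockout 2i (-1.34, SE 0.19, adjusted p = 0.000191). The serum arrays were 8.09 and 8.08 against 6.72 and 6.96 (-1.25, adjusted p = 0.0011). Without LIF the difference was -1.36 and with MEK inhibitor -0.82 (adjusted p = 0.000403 and 0.0187). Its partner Smc1b, dim on these arrays, had knockout differences of -1.64, -0.96, -1.86 and -1.26 without passing (adjusted p = 0.0686, 0.364, 0.0612 and 0.264). Rec8, the kleisin that holds sister chromatids in meiosis, lay the other way in all 4 media, by 0.56, 0.32, 0.26 and 0.20, and also did not pass (adjusted p from 0.143 to 0.798). The recombinase Dmc1 had differences of 0.12, -0.41, -0.35 and 0.08, none called.

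Among genes of the piRNA pathway, Gpat2, a mitochondrial outer membrane protein needed for piRNA production, read 7.27 and 6.64 in wild-type 2i against 4.34 and 4.29 in knockout 2i (-2.64, SE 0.27, adjusted p = 5.77e-06). In serum it read 7.27 and 7.06 against 5.69 and 4.80 (-1.92, adjusted p = 0.000605). Without LIF the difference was -1.96 (adjusted p = 0.000376) and with MEK inhibitor -1.93 (adjusted p = 0.000354); all 8 knockout arrays were under 6. Piwil2, the PIWI protein also called MILI, differed less, from 6.67 and 6.23 to 5.67 and 5.70 in 2i (-0.76, adjusted p = 0.0122). Without LIF its arrays went from 8.06 and 7.84 to 7.25 and 7.22 (-0.72, adjusted p = 0.0326), and with MEK inhibitor the difference was 0.28 and did not pass (adjusted p = 0.542). Tex19.1 fell without LIF, from 11.74 and 11.00 to 9.59 and 10.06 (-1.54, adjusted p = 0.019). Mael, Tdrkh, Stk31, Asz1 and Mov10l1 were called in no medium. Slc25a31, a germ cell ADP/ATP carrier of mitochondria, fell in 2i from 4.56 and 3.65 to 1.88 and 2.50 (-1.92, adjusted p = 0.00293), all below the floor, and differed by -1.23, -1.22 and -0.91 in the other media without passing.

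Some of these calls depended on single arrays. Without wild-type replicate 1 in 2i the count was 5 of 29 in place of 8, and Stra8, Piwil2 and Slc25a31 no longer passed (adjusted p = 0.0562, 0.2 and 0.0727); Piwil2 was also lost without knockout replicate 1 or 2 (adjusted p = 0.0679 and 0.0512). Without LIF, leaving out knockout replicate 1 or wild-type replicate 1 gave 3 in place of 6, with Sohlh2 at 0.108 and 0.198, Piwil2 at 0.139 and 0.229 and Tex19.1 at 0.176 and 0.21 (adjusted p); Sohlh2 and Piwil2 were also lost without knockout replicate 2 (adjusted p = 0.104 and 0.143) and Piwil2 without wild-type replicate 2 (adjusted p = 0.0554). With MEK inhibitor, leaving out knockout replicate 1 or wild-type replicate 1 gave 2 in place of 5, with Dazl at 0.0938 and 0.167, Sohlh2 at 0.109 and 0.218 and Stag3 at 0.182 and 0.16 (adjusted p). The calls of Hormad1 and Gpat2 in all 4 media held whichever array was left out. When the compared groups were fitted alone, with the spread of their own arrays only, the folds stayed the same and 0 of the 29 genes passed in limma in any of the 4 media: Hormad1 was at 0.0758, 0.142, 0.0816 and 0.0679 in 2i, serum, without LIF and with MEK inhibitor (adjusted p).

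**Figure D3:**
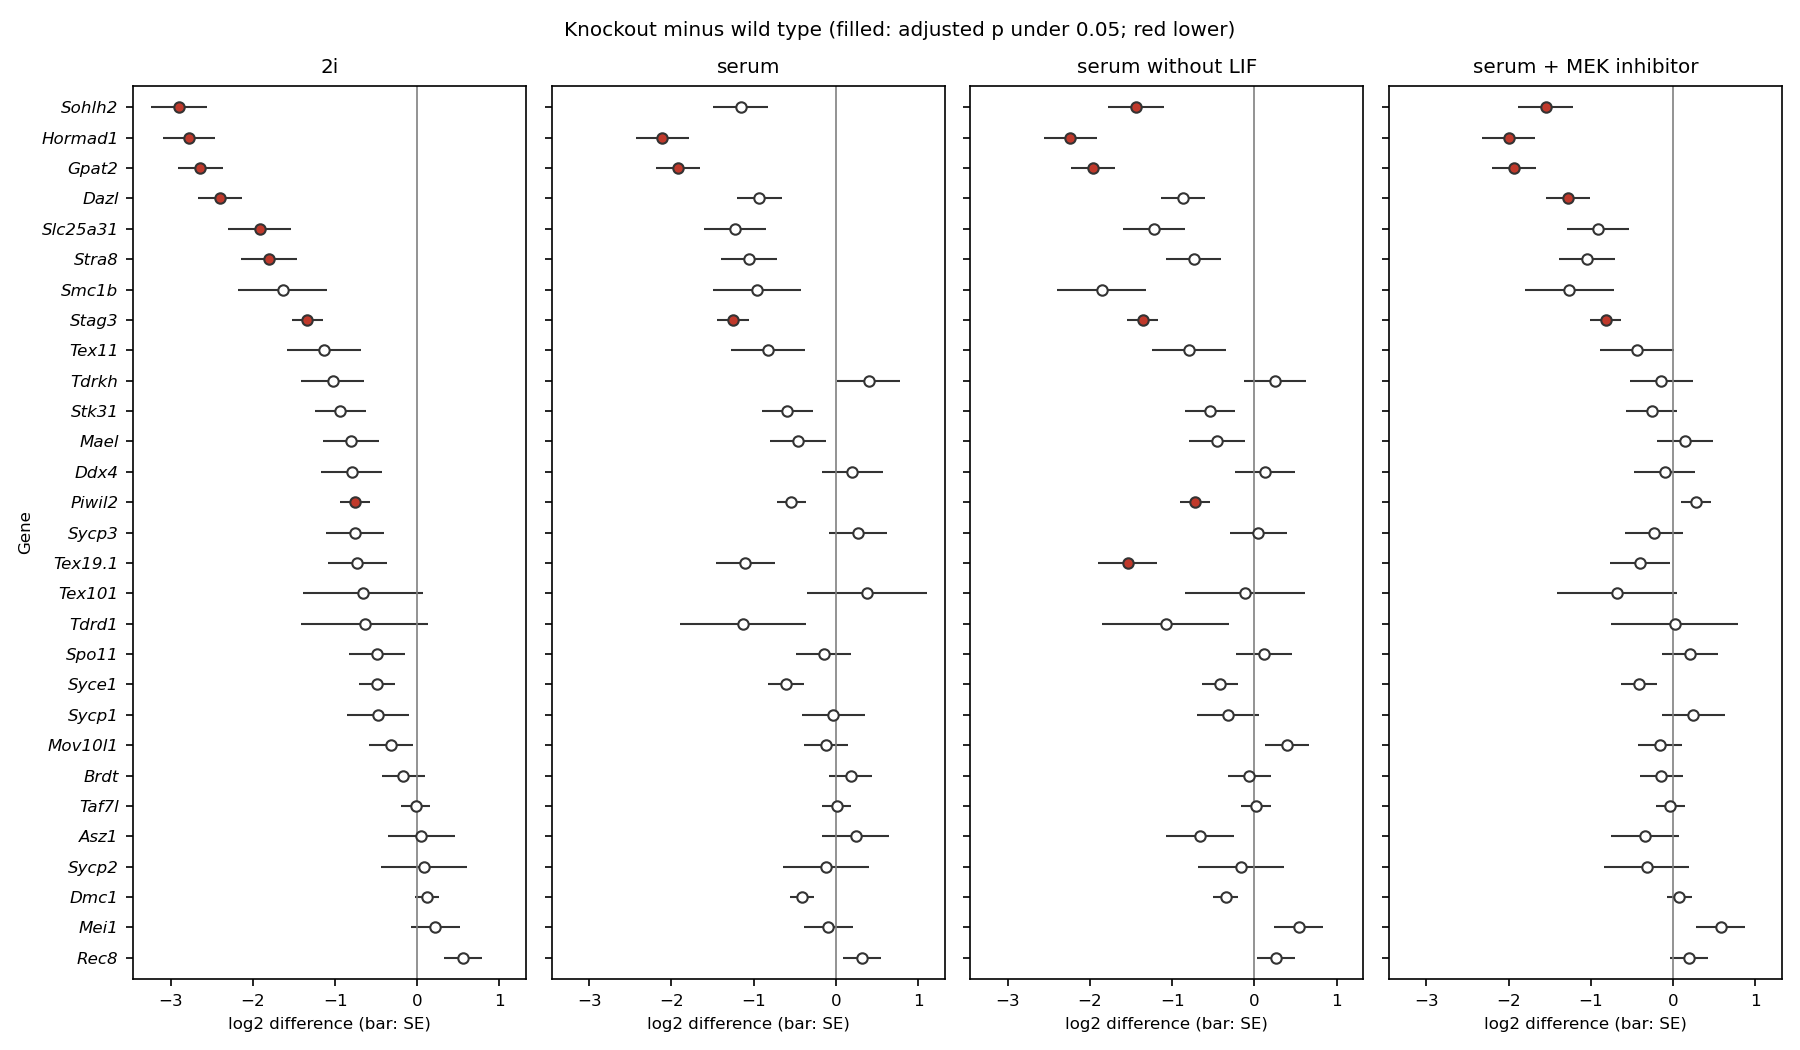
Log2 difference, arrays labelled knockout minus wild type, of the 29 genes in each of 4 media (points; bars show the standard error of the limma fit, 2 arrays per group). Red points passed an adjusted p of 0.05 as lower and open points did not pass. Sohlh2 at -2.90 leads in 2i, and Hormad1, Gpat2 and Stag3 are red in all 4 media.

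The arrays with the AGP14 transgene are labelled as knockout cells given Prdm14 back, and were set against the knockout for the same genes. The Prdm14 probe set was called higher than in knockout in only 1 of 3 media. It was lower with AGP14 than in knockout 2i (9.30 and 9.11 against 11.33 and 11.24, a difference of -2.08, adjusted p = 0.001) and did not pass in serum (6.42 and 6.33 against 5.40 and 6.47, 0.44, adjusted p = 0.593). Without LIF it was higher (5.12 and 4.86 against 3.21 and 4.05, 1.36, adjusted p = 0.0326). In 2i the AGP14 arrays lay between the wild-type arrays, at 8.95 and 9.40, and the knockout arrays stood apart. Whether the probe set reads the transgene was not tested. Directions below therefore rest on the labels; these comparisons share the knockout arrays with those above, so the values stand side by side and are not independent. In 2i, 5 of 29 genes rose with AGP14 (Hormad1, Gpat2, Slc25a31, Dazl, Stag3) and 2 fell (Sycp3, Dmc1), where 8.22% of all genes were called higher and 16.0% lower. In serum 2 rose (Hormad1, Stag3) and Tdrkh fell, with 5.23% and 5.28% of all genes called. Without LIF 5 rose (Hormad1, Smc1b, Dazl, Gpat2, Stag3), where 8.09% of all genes were called higher, and none fell, where 5.22% were called lower, with 2 genes lower at an unadjusted p under 0.05. The median difference of the 29 genes was 0.20 in 2i, -0.04 in serum and 0.17 without LIF, against -0.03, -0.01 and 0.01 over all genes. After quantile normalization the calls over all genes were 2180 higher and 2189 lower in 2i, in place of 1495 and 2906, and 1302 and 1299 without LIF, in place of 1471 and 950. Both falls among the 29 genes in 2i were lost then (adjusted p = 0.07 for Sycp3 and 0.126 for Dmc1), while Sohlh2 and Piwil2 passed as higher (0.0333 and 0.0284).

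Hormad1 read 7.79 and 8.12 with AGP14 in 2i, above both knockout arrays and on either side of the lower wild-type array, a rise of 2.36 over knockout (SE 0.32, adjusted p = 3.81e-05). In serum it read 8.60 and 8.75 (1.92 over knockout, adjusted p = 0.000758), and without LIF 9.15 and 9.27, above both wild-type arrays (2.86, adjusted p = 8.06e-06). Stag3 with AGP14 read 6.75 and 6.86 in 2i, 7.64 and 7.38 in serum and 7.60 and 7.25 without LIF. These values lay between those of knockout and wild type in each medium, with rises of 0.66, 0.67 and 0.96 over knockout (adjusted p = 0.0165, 0.0301 and 0.00194).

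Gpat2 with AGP14 read 6.29 on both arrays in 2i, a rise of 1.98 over knockout (adjusted p = 3.8e-05), and 6.31 and 6.20 without LIF, a rise of 1.00 (adjusted p = 0.0182). In serum its 5.98 and 6.07 exceeded knockout by 0.78 without passing (adjusted p = 0.0782). Dazl with AGP14 read 6.91 and 6.69 in 2i, between knockout and wild type (1.36, adjusted p = 0.00121), and 8.06 and 7.82 without LIF, above both wild-type arrays (1.03, adjusted p = 0.0152). The further probe set of Dazl, not used in the tests, rose less in 2i. Its group means there were 6.20 with AGP14, 5.62 in knockout and 7.96 in wild type. Without LIF they were 7.44, 6.48 and 7.38. Sohlh2 did not pass in any medium: its differences from knockout were 0.91, 0.37 and 0.62 (adjusted p = 0.059, 0.588 and 0.274), and its AGP14 arrays, from 6.73 to 7.68 stayed under both wild-type arrays of the same medium. Sycp3 with AGP14 in 2i read 6.99 and 6.93, below the knockout arrays at 7.20 and 8.80 (-1.04, adjusted p = 0.0379); the call was also lost with no intensity trend (0.0698) and with the compared groups alone (0.212), and that of Dmc1 with the mean of probe sets (0.0866) and the compared groups alone (0.157). Tex19.1, lower in knockout without LIF, read 10.09 and 9.89 with AGP14 there (0.17 over knockout, adjusted p = 0.844).

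In 2i the AGP14 arrays had the low spike level and the knockout arrays the high one, and the feeder markers read 9.25 and 9.05 against 9.55 and 9.67, with 5 of 11 lower; the part of either in the result was not tested. In serum and without LIF the arrays of both groups had the low spike level, but markers of cell state moved with AGP14. The mean of 5 ESC markers read 11.73 and 11.78 against 10.79 and 10.93 in knockout serum, with 4 of 5 called higher, among them Esrrb (10.60 against 8.92 as group means) and Nanog (11.94 against 10.32). Without LIF it read 11.48 and 11.55 against 9.99 and 10.29, again with 4 of 5 higher, Esrrb by 2.86 and Nanog by 1.99. Of 4 EpiLC markers, Pou3f1, Fgf5 and Dnmt3b were lower in serum (-2.24, -2.38 and -0.90), and Pou3f1 and Dnmt3b without LIF (-1.94 and -0.80). In both media Fn1 of the feeder list was higher and Mmp2 lower, and Col3a1 was higher without LIF. The part of these markers in the result was not tested. Leaving out AGP14 replicate 1 or 2 in 2i gave 4 and 3 calls in place of 7. There Stag3 and Dmc1 missed the threshold when AGP14 replicate 1, AGP14 replicate 2 or knockout replicate 1 was dropped (adjusted p = 0.0528, 0.105 and 0.206 for Stag3, 0.1, 0.0646 and 0.353 for Dmc1), Sycp3 when either AGP14 array or knockout replicate 2 was dropped (0.118, 0.145 and 0.657), and Slc25a31 without AGP14 replicate 2 or knockout replicate 1 (0.0784 and 0.12). In serum the count was 1 in place of 3 without AGP14 replicate 1, with Tdrkh at 0.0904, and Stag3 was lost without any 1 of the 4 arrays (adjusted p from 0.0554 to 0.218). Without LIF the count was 2, 3 and 2 in place of 5 without AGP14 replicate 1, AGP14 replicate 2 and knockout replicate 2: Smc1b was lost without any 1 of the 4 arrays (adjusted p from 0.0507 to 0.0832), Gpat2 without those 3 (0.109, 0.0748 and 0.266) and Dazl without AGP14 replicate 1 or knockout replicate 2 (0.122 and 0.151). Hormad1 kept its call in all 3 media whichever array was left out.

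**Figure D4:**
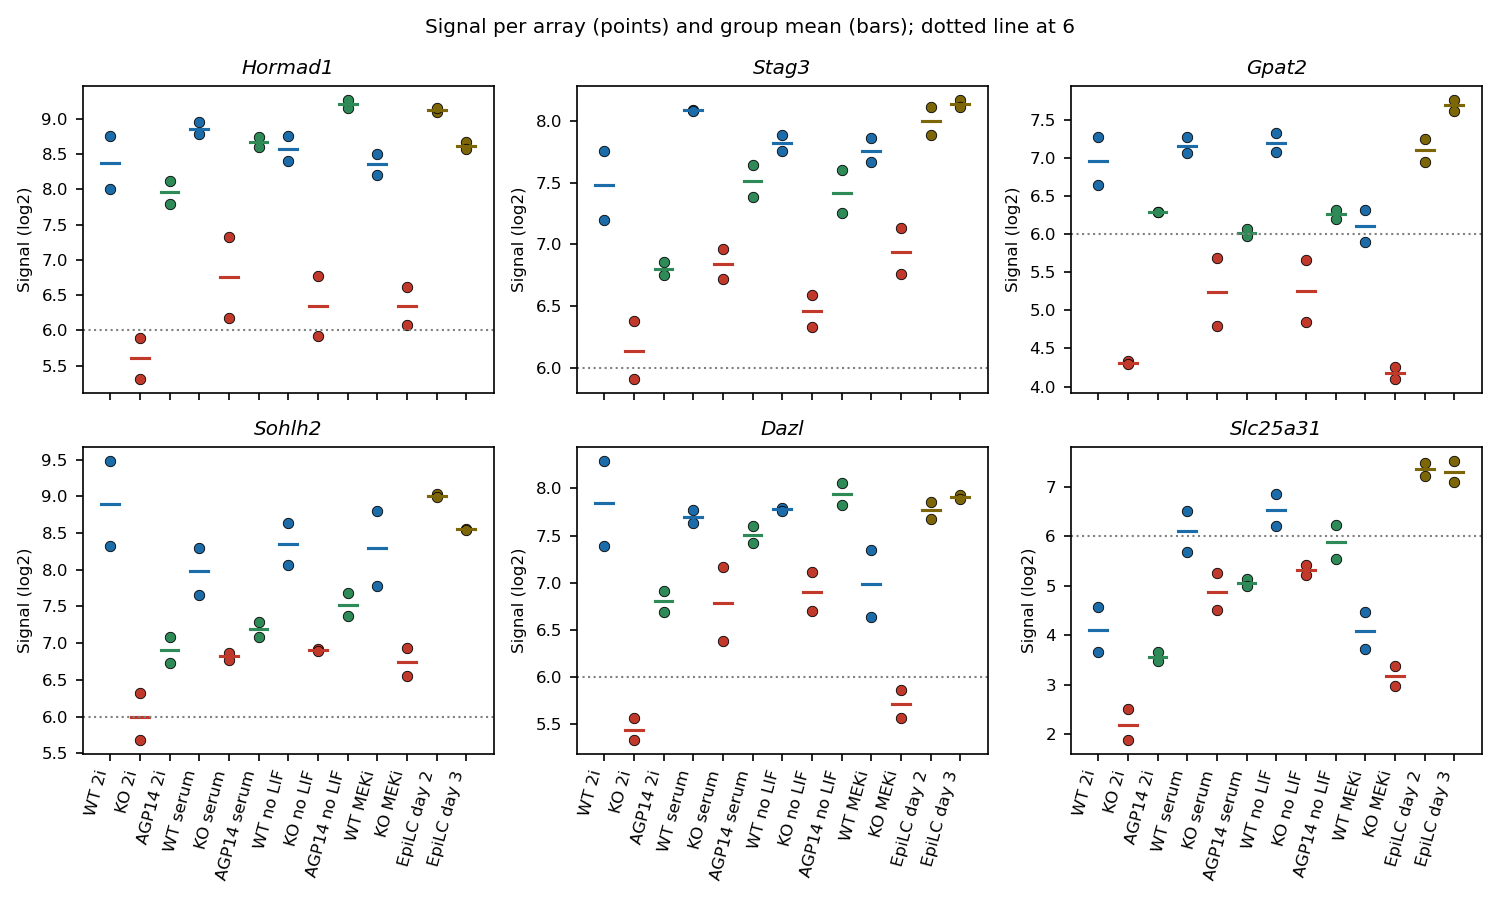
Deposited log2 signal on each array (points) and group mean (bars) of 6 genes in the 13 groups; blue is wild type (WT), red labelled knockout (KO), green AGP14 and brown EpiLCs, the dotted line marks the floor of 6, and each panel has its own axis. In every medium both red points lie below both blue points, and for Hormad1 the green points (7.79 to 9.27) lie above the red points (5.31 to 7.33).

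The comparison of serum with 2i in wild-type cells asked how these genes stood after 2 days away from the inhibitors. In serum 8 of 29 genes rose: Slc25a31, Mael, Piwil2, Sycp1, Dmc1, Syce1, Stag3 and Taf7l, where 15.2% of all genes were called higher. Sohlh2 fell, where 19.4% of all genes were called lower. The median difference was 0.52 against -0.01 over all genes. Slc25a31 read 6.52 and 5.68 in serum against 4.56 and 3.65 in 2i (2.00, SE 0.38, adjusted p = 0.000353), so that its mean crossed the floor. Mael read 10.06 and 9.08 against 8.42 and 7.54 (1.59, adjusted p = 0.00111). Piwil2 read 8.13 and 7.91 against 6.67 and 6.23 (1.57, SE 0.18, adjusted p = 2.09e-06). The arrays of these 3 genes did not overlap between media. Sycp1 read 6.50 and 5.42 against 5.15 and 3.80 (1.48, adjusted p = 0.00512), and Dmc1 8.13 and 8.34 against 7.51 and 7.35 (0.80, adjusted p = 0.000277). Sohlh2 fell by 0.92 (adjusted p = 0.0425), with 8.30 and 7.66 in serum, and its higher serum array lay just under the lower 2i array at 8.32. The call was lost with no intensity trend (adjusted p = 0.0723), quantile normalization (0.058), the mean of probe sets (0.0505) and the compared groups alone (0.185). Hormad1, Dazl and Gpat2, which separated the genotypes, differed between these media by 0.48, -0.14 and 0.21 and did not pass (adjusted p = 0.288, 0.75 and 0.615).

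The feeder markers moved with this comparison, with 8 of 11 lower in serum and a median difference of -3.50, and so did the spike level; their part in the result was not tested. Pou5f1, which feeder cells lack, differed by -0.19. Markers of cell state moved too: Nanog, Esrrb and Zfp42 were called lower (-1.62, -1.42 and -0.56), and Sox2 did not pass (-0.07). The EpiLC markers Otx2, Fgf5, Pou3f1 and Dnmt3b were called higher (6.04, 4.40, 3.88 and 3.39). The part of these markers in the result was not tested. Leaving out 2i replicate 2 or serum replicate 1 gave 5 calls in place of 9. Without those arrays Sycp1 was at 0.143 and 0.119, Syce1 at 0.197 and 0.132, Taf7l at 0.194 and 0.39 and Stag3 at 0.289 and 0.0776 (adjusted p); Stag3 was also lost without serum replicate 2 (0.0661) and Sohlh2 without 2i replicate 1 or serum replicate 2 (differences of -0.34 and -0.60, adjusted p = 0.53 and 0.301). Mael, Piwil2, Slc25a31 and Dmc1 kept their calls.

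Serum with the MEK inhibitor was then compared with serum in wild-type cells. This comparison uses the same 2 serum arrays with the opposite sign and lies across the same spike levels, so a sign opposite to that of serum against 2i is no separate result. Of the 29 genes 11 fell (Mael, Slc25a31, Piwil2, Tdrkh, Sycp1, Syce1, Gpat2, Tex19.1, Stk31, Dmc1 and Taf7l), where 11.2% of all genes were called lower, and none rose, where 14.3% were called higher; no gene of the list was higher at an unadjusted p under 0.05 and 12 were lower. The median difference was -0.68 against 0.00 over all genes, and 26 of the 29 lay below 0 against 50.3% of all genes. Mael read 7.75 and 6.83 with the inhibitor (-2.28, SE 0.34, adjusted p = 7.08e-05), Slc25a31 4.46 and 3.72 (-2.01, adjusted p = 0.00059) and Piwil2 6.31 and 5.81 (-1.96, adjusted p = 5.68e-07). The arrays of these 3 genes overlapped with those of wild-type 2i, which also holds the inhibitor; that difference was not tested. Gpat2 read 6.31 and 5.90 with the inhibitor against 7.27 and 7.06 in serum (-1.06, adjusted p = 0.0072). Hormad1 (-0.51, adjusted p = 0.287), Stag3 (-0.32, adjusted p = 0.253) and Sohlh2 (0.31, adjusted p = 0.566) did not pass.

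The feeder markers were higher with the inhibitor for 10 of 11 and lower for 1, with a median of 1.42, and the spike level differed as well. Cell state markers also shifted. Nanog, Esrrb and Zfp42 were called higher (1.62, 1.38 and 0.49), while Pou5f1 and Sox2 did not pass (0.12 and 0.24). Of the EpiLC markers Pou3f1 and Dnmt3b were called lower (-1.92 and -1.32), while Fgf5 and Otx2 did not pass (-1.46 and -1.32). The part of any of these in the result was not tested. Leaving out serum replicate 1 or MEK inhibitor replicate 2 gave 5 calls in place of 11. Without those arrays Sycp1 was at 0.364 and 0.197, Tdrkh at 0.143 and 0.154, Gpat2 at 0.0647 and 0.0912, Stk31 at 0.289 and 0.335, Tex19.1 at 0.276 and 0.544 and Taf7l at 0.315 and 0.0715 (adjusted p), and Taf7l was also lost without MEK inhibitor replicate 1 (0.0825). Mael, Slc25a31, Piwil2, Dmc1 and Syce1 kept their calls. A further probe set of Dmc1, not used in the tests, fell less. Its group means were 7.32 with the inhibitor and 7.50 in serum, where the probe set used had 7.55 and 8.24.

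Removing LIF from serum gave no call among the 29 genes by limma, in wild type, where 1.17% of all genes were called lower and 0.330% higher; 1 of the 29 was lower and 1 higher at an unadjusted p under 0.05. Differences ran from -0.51 for Syce1 to 0.72 for Sycp2, with a median of 0.11 against -0.02 over all genes. After quantile normalization 98 genes of all were called higher and 148 lower, in place of 60 and 213, and again none of the 29. Without serum replicate 1 the count of the 29 was 1.

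EpiLCs at day 2 were compared with wild-type ESCs in 2i, within 1 spike level and with the 2i arrays of the serum comparison, to place the list in cells that model the epiblast after implantation. Of the 29 genes 14 rose, where 17.2% of all genes were called higher, and Tex19.1 fell, where 21.1% were called lower. The median difference was 0.61 against -0.01 over all genes. Slc25a31 read 7.22 and 7.49 in EpiLCs against 4.56 and 3.65 in 2i (3.25, SE 0.38, adjusted p = 1.14e-06), and 7.52 and 7.09 at day 3. Smc1b rose by 2.68 (5.41 and 5.91 against 2.98 and 2.98, adjusted p = 0.000547) and still lay under the floor. Sycp1 read 6.59 and 6.84 (2.24, adjusted p = 0.000107), Tdrkh, a Tudor protein that helps trim piRNAs, 6.62 and 6.78 against 5.27 and 3.91 (2.11, adjusted p = 0.000158), Mael 9.74 and 9.80 (1.79, adjusted p = 0.000295) and Piwil2 8.11 and 8.05 (1.63, adjusted p = 8.31e-07). The others that rose were Sycp2, Asz1, Tex11, Stk31, Sycp3, Dmc1, Stag3 and Taf7l, by 0.51 to 1.66.

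Sycp3 and Ddx4 were highest of all groups in EpiLCs at day 3, where Sycp3 read 10.83 and 10.78 and Ddx4 9.31 and 9.23; day 3 was not tested. Tex19.1 went the other way, from 11.03 and 10.28 in 2i to 9.52 and 9.57 at day 2 (-1.11, adjusted p = 0.0196) and 8.57 and 8.64 at day 3. Hormad1, Sohlh2, Dazl and Gpat2 differed from 2i by 0.74, 0.11, -0.07 and 0.14 and did not pass (adjusted p = 0.0813, 0.85, 0.882 and 0.747). The feeder markers were lower in EpiLCs for 9 of 11 and higher for 1, with a median of -3.77. Of the ESC markers Pou5f1 differed by 0.00, while Esrrb, Nanog, Zfp42 and Sox2 were called lower (-4.04, -2.38, -2.04 and -1.50). The EpiLC markers Fgf5, Otx2, Pou3f1 and Dnmt3b were called higher (6.24, 5.74, 5.06 and 3.76). The part of any of these markers in the result was not tested. The EpiLCs carried reporters that the wild-type ESCs did not, and the effect of these cannot be told apart from that of the cell state.

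After quantile normalization the calls over all genes in this comparison were 3935 higher and 3190 lower, in place of 3136 and 3830. Leaving out EpiLC replicate 1 or 2 gave 9 and 8 calls in place of 15. Sycp2, Sycp3, Tex11, Stag3 and Taf7l were lost without either (adjusted p = 0.0609 and 0.0714, 0.0723 and 0.159, 0.062 and 0.0768, 0.0537 and 0.227, 0.13 and 0.0942), as was Tex19.1 (0.0845 and 0.0712), and Stk31 without replicate 2 (0.0597). Leaving out 2i replicate 1 ended the calls of Sycp2, Asz1 and Tex19.1 (0.107, 0.078 and 0.211), and 2i replicate 2 those of Sycp3, Tex11, Stag3, Stk31 and Taf7l (0.312, 0.14, 0.448, 0.119 and 0.233). Slc25a31, Smc1b, Sycp1, Tdrkh, Mael, Piwil2 and Dmc1 kept theirs.

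**Figure D5:**
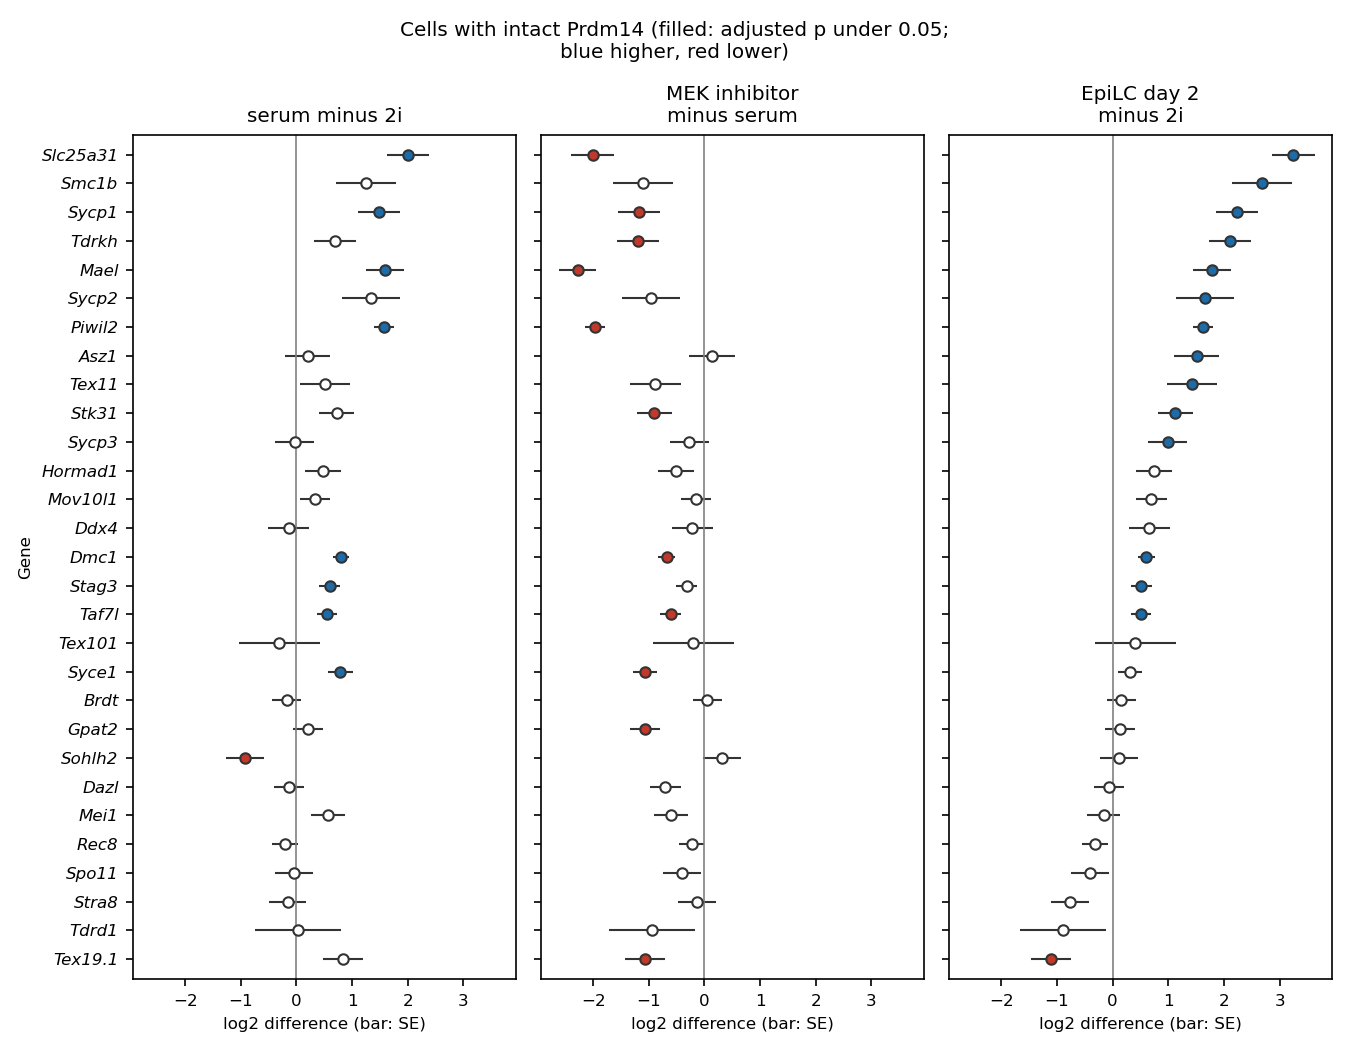
Log2 difference of the 29 genes in cells with intact Prdm14: serum minus 2i, serum with MEK inhibitor minus serum, and EpiLC day 2 minus 2i (points; bars show the standard error of the limma fit, 2 arrays per group). Blue points passed as higher and red as lower at an adjusted p of 0.05. The Prdm14 gene was intact, but its own signal differed in these comparisons by -2.54, 2.63 and -6.11. Slc25a31, Mael and Piwil2 are blue on the left (2.00, 1.59 and 1.57), red in the middle (-2.01, -2.28 and -1.96) and blue on the right (3.25, 1.79 and 1.63); the left and middle panels share the serum arrays with opposite sign, and the left and right panels share the 2i arrays.

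The genotype difference itself was compared between serum and 2i. Dazl was the 1 gene of 29 that passed: its knockout difference was -2.40 in 2i and -0.93 in serum, a change of 1.47 (SE 0.39, adjusted p = 0.0461), where 1.36% of all genes passed as higher and 1.62% as lower. Sohlh2 had a change of 1.74 that missed the threshold (adjusted p = 0.0576), from -2.90 to -1.16, and passed with the replicate number or the line as a block (0.0492 and 0.00689). For Hormad1, Gpat2 and Stag3 the changes were 0.68, 0.72 and 0.09 (adjusted p = 0.529, 0.396 and 0.924). The Dazl call was lost without 6 of the 8 arrays taken out 1 at a time: knockout replicates 1 and 2 and wild-type replicate 1 in 2i (adjusted p = 0.137, 0.0647 and 0.203), and knockout replicate 1 and wild-type replicates 1 and 2 in serum (0.2, 0.0816 and 0.125).

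The enzymes that write DNA methylation were read on the same arrays. In knockout 2i the de novo cofactor Dnmt3l was higher by 3.07 (adjusted p = 1.86e-09) and the de novo enzyme Dnmt3b by 1.96 (adjusted p = 5.71e-05), while the maintenance enzyme Dnmt1 differed by -0.32 (adjusted p = 0.0177); Dnmt3a, Uhrf1 and Hells did not pass. In knockout serum none of the 6 passed, with 1 lower and 1 higher at an unadjusted p under 0.05, and Dnmt3l differed by -0.03 (adjusted p = 0.949). Without LIF Dnmt1 was lower (-0.30, adjusted p = 0.0439) and Dnmt3l differed by -0.40 without passing (adjusted p = 0.226). With MEK inhibitor Dnmt3l was higher in knockout by 1.14 (11.80 against 10.66 as group means, adjusted p = 0.000605), and Dnmt3b by 0.83 without passing (adjusted p = 0.0759). With AGP14 in 2i Dnmt3l and Dnmt3a were lower than in knockout (-1.24 and -1.68, adjusted p = 3.89e-05 and 0.00215) and Dnmt3b differed by -0.18 (adjusted p = 0.674); in serum Dnmt3a and Dnmt3b were lower (-1.60 and -0.90), and without LIF Dnmt3b (-0.80). The part of these enzymes in the germline differences was not tested. The change of the genotype difference between serum and 2i was -3.10 for Dnmt3l (adjusted p = 1.55e-06) and -1.75 for Dnmt3b (adjusted p = 0.0128). In wild-type serum against 2i Dnmt3a, Dnmt3l, Dnmt3b and Hells were higher by 3.76, 3.68, 3.39 and 0.70, and Uhrf1 and Dnmt1 differed by -0.39 and -0.33. In EpiLCs at day 2 Dnmt3a, Dnmt3b and Dnmt3l were higher than in 2i by 4.88, 3.76 and 2.15. With MEK inhibitor Dnmt3a, Dnmt3b, Dnmt3l and Hells were lower than in serum, at -2.09, -1.32, -1.02 and -0.26. Of the demethylation enzymes, Tet1 was lower in knockout without LIF (-0.50, limma adjusted p = 0.000419), the only Tet call against wild type. With AGP14 Tet1 and Tet2 were lower than in knockout 2i (-0.75 and -1.32). They were higher in serum (0.48 and 1.01) and without LIF (1.00 and 1.71). Both were lower in wild-type serum than in 2i (-0.33 and -0.95). Tet1 was higher with MEK inhibitor than in serum (0.71). The part of the Tet enzymes was not tested. No methylation was measured on these arrays.

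Of 12 repressors known at germline promoters, Setdb1 was the only one called between knockout and wild type: it was higher by 0.43 in 2i (adjusted p = 0.0017), 0.32 in serum (adjusted p = 0.0286) and 0.49 with MEK inhibitor (adjusted p = 0.00138), and by 0.25 without passing when LIF was absent (adjusted p = 0.0869). E2f6, Mga, Max, L3mbtl2, Pcgf6, Ring1, Rnf2, Cbx3, Ehmt1, Ehmt2 and Trim28 were not called in those comparisons. With AGP14 in 2i, across spike levels, more were called against knockout. Ehmt2, Mga, Setdb1, E2f6, Max and Trim28 were lower (-0.92, -0.79, -0.77, -0.48, -0.39 and -0.21). Pcgf6 was higher (0.25), where 16.0% of all genes were called lower and 8.22% higher. In serum with AGP14 Ehmt1 was lower (-0.49) and Rnf2 higher (0.27). Without LIF, within 1 spike level, E2f6 was lower with AGP14 (-0.48, limma adjusted p = 0.0491). Others lay the other way there as group means, among them Rnf2 (10.87 against 10.48) and L3mbtl2 (9.40 against 8.95), with tests not given here. In wild-type serum against 2i 3 of the 12 were higher (Ehmt1, L3mbtl2 and Pcgf6, by 0.66, 0.59 and 0.59) and 3 lower (Ring1, Max and Rnf2, at -0.87, -0.40 and -0.17). Over all genes 15.2% were called higher and 19.4% lower in that comparison, which also lies across spike levels.

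Of 26 further germline genes 24 were on the array. In the arrays labelled knockout Ccnb1ip1, a regulator of meiotic crossovers, Hormad2, the partner of Hormad1, and Tex14, a component of germ cell bridges, were lower in all 4 media, that is 12.5% of the 24 against 0.445% of all genes; 2 were lower in 1 medium, 19 in none, and none was higher in any. Ccnb1ip1 differed by -3.83 in 2i and -4.18 in serum (adjusted p = 1.02e-09 and 6.87e-10), and AGP14 differed from knockout by 0.14 and 0.61 there without passing (adjusted p = 0.679 and 0.0574). Hormad2 differed by -1.44 and -2.06 (adjusted p = 0.00429 and 0.00069) and was higher with AGP14 by 1.26 and 1.38. Rnf17, a Tudor protein of germ granules, passed in 2i at -2.04 (adjusted p = 0.0158); its differences in serum, without LIF and with MEK inhibitor were -0.66, -0.82 and -1.56 with no overlap between arrays, and did not pass (adjusted p = 0.536, 0.444 and 0.104). Piwil1, under the floor, passed in 2i at -0.91 and differed by -0.04, 0.07 and -0.41 in the other media. The change of the difference between serum and 2i did not pass for Rnf17 or Piwil1 (adjusted p = 0.384 and 0.23). In wild-type serum 6 of the 24 (25.0%, against 15.2% of all genes) were higher than in 2i, among them the synaptonemal complex gene Syce3 by 3.46, the piRNA factor Tdrd5 by 2.39 and the meiotic genes Meiob and Meioc by 2.40 and 2.22, and none was lower at the adjusted or unadjusted threshold, where 19.4% of all genes were called lower.

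The likeness of group means was described for Hormad1 and Dazl, as a Pearson correlation over the 13 groups among the 18192 other genes; the groups share lines, media and spike levels. The genes nearest to Hormad1 were Xlr4c (0.977), Rhox5 (0.961), Rnf17 (0.933), Gm13261 (0.928) and Slc38a4 (0.927). Rhox5 is an X-linked homeobox gene of the reproductive tract whose promoter is a known target of DNA methylation, and its group means ran from 6.04 to 11.64; those of Xlr4c stayed under the floor. The genes nearest to Dazl were Gm13261 (0.931), Rnf17 (0.928), Cyct (0.922), the cytochrome c of testis, Vamp7 (0.915) and Efhc2 (0.914). Within the list Dazl and Hormad1 had 0.897. Among the listed genes above the floor this was the highest value for Hormad1, and the lowest was -0.578 for Rec8. For Dazl they ran from -0.409 for Rec8 to 0.906 for Gpat2. Sycp3 had 0.307 with Hormad1 and 0.547 with Dazl, and Tex19.1 had 0.116 and 0.114.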

How the data were processed

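Total RNA was labelled as cRNA and hybridised to Affymetrix mouse arrays, per the labels' protocols. The authors deposited 1 table of normalized signals for 26 arrays; how they normalized it is stated in no source used here. From the values (0 to 13.89, array medians 4.86 to 5.01) the deposited signals were taken as log2. That scale was not stated, so the differences are log2 only if it holds. Of 45100 probe sets, 34944 named a single gene, 932 several and 9160 none, through the platform annotation given with the table; 64 control probe sets were left out of the tests.

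Each gene kept the brightest of the probe sets that name it alone, by the average over arrays, and 18193 genes were fitted in 1 limma model (version 3.58.1, R 4.3.3, lmFit and eBayes with an intensity trend, two-sided) with a coefficient for each of 13 groups. P-values were Benjamini-Hochberg adjusted over all genes in each of 12 comparisons, with 0.05 as the threshold. The model has 13 residual degrees of freedom, pooled over groups of 2 arrays, and this number of arrays limits the precision. The fitting code was tested on simulated data. Sequences came from the RefSeq promoter table. The comparisons of knockout with wild type share replicate numbers, but arrays of the same number and different genotype did not deviate together (correlations from -0.06 to 0.03 over 40 pairs). Same-numbered arrays of 1 genotype in different media did, at 0.106 to 0.216 in wild type (over 0.1 in 6 of 6 pairs) and 0.099 to 0.201 in knockout (5 of 6). The model as reported has no block; fits with the replicate number or the line as a block are among the alternatives. Alternatives were the intensity trend, quantile normalization, the mean of a gene's probe sets, dim genes left out, the replicate block, the line as a random block, the compared groups alone, the floor, and each array left out. All genes of the list could be named, with values in every array for those on which the results turn; genes of the other lists were named where they passed or as not passing, and likeness was given for the 5 nearest genes. The genes and lists were chosen with earlier results of these data known.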

Additional observations from a re-analysis of the deposited data

Results flagged for a closer look

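The knockout difference of Dazl changed between serum and 2i by 1.47 on the log2 scale (limma, adjusted p = 0.0461), from -2.40 in 2i to -0.93 in serum. It stood out because the difference between the media was itself tested and passed. The adjusted p was 0.0921 with no intensity trend and 0.0506 with the mean of both Dazl probe sets, and the call was lost without 6 of 8 arrays. The 2i and serum arrays had different spike levels, with wild type and knockout at the same level within each medium.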

How the results depend on the processing

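Among the 29 genes all 73 calls kept their direction under every alternative that gave a value, and 35 passed whichever array was left out. The 18 genes above the floor were 18 after quantile normalization. Fitting the compared groups alone, with only their own spread, ended 40 of the 73 calls; it gave 0 calls for knockout against wild type in each of 2i, serum, serum without LIF and serum with MEK inhibitor, 0 for the change of the genotype difference, 3 for AGP14 in 2i, 5 for serum against 2i and 6 for MEK inhibitor. In knockout serum, 3 calls became 5 with dim genes left out. With no intensity trend, knockout without LIF gave 3 in place of 6, and the genotype difference 0 in place of 1, as with the mean of probe sets, and 2 with dim genes left out. With the replicate number as a block, calls in knockout serum were 6 and the genotype difference gave 2; with the line as a random block they were 7 and 2. For serum against 2i they gave 9 and 12 in place of 9. The block ended none of the 73 calls. Besides the calls named in the report, the replicate block added Mael in knockout 2i, Dazl and Slc25a31 in knockout without LIF, Piwil2 and Gpat2 with AGP14 (in 2i and serum), Dazl as lower with MEK inhibitor and Mov10l1 in EpiLCs. The random block added Stk31 in knockout 2i, Slc25a31 without LIF, Sohlh2 and Piwil2 with AGP14 in 2i and Gpat2 in serum, Sycp2, Stk31 and Tex19.1 in serum against 2i, Dazl with MEK inhibitor and Hormad1 in EpiLCs. Leaving out 1 array gave 5 to 12 calls for knockout in 2i, 3 to 4 in serum, 3 to 5 without LIF and 2 to 5 with MEK inhibitor. For AGP14 it gave 3 to 8 in 2i, 1 to 4 in serum and 2 to 4 without LIF. It gave 5 to 11 for serum against 2i, 0 to 1 for LIF removal, 5 to 12 for MEK inhibitor, 8 to 14 for EpiLCs and 0 to 4 for the genotype difference. Fewer arrays enter those fits; other causes were not tested. Genes below the floor lie where the array separates signal from background least.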
